A study of Homo sapiens with 5 samples.

Results

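The occupancy of ERG and p53 was examined at 4 gene loci in VCaP cells: KMT2A, KAT6A and KMT2D, which encode chromatin regulators, and MCL1, which encodes a survival protein. Each locus is the span of the gene widened by 50 kb on either side, and its members are the peaks of the 4 deposited lists that overlap this window. The rule found 25 of the 25939 peaks in all 4 lists. The loci held 11 of 14337 peaks in ERG replicate 1, 8 of 11237 in ERG replicate 2, 2 of 227 in p53 replicate 1 and 4 of 138 in p53 replicate 2. The genes were chosen by the presence of p53 and ERG peaks at them in these lists, so that presence is a description and was not tested.

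VCaP is a single established human prostate cancer cell line. It expresses an N-terminally truncated ERG from the TMPRSS2-ERG fusion and a mutant form of p53. All cells were untreated, and both factors were precipitated from these same cells, ERG with the antibody ab92513 and p53 with DO-1 (sc-126). The purpose of the series was to locate the genes that either factor occupies. Each factor had 2 samples, and the input chromatin sample was not analysed here. Nothing in the labels says whether replicates came from separate cultures, and the study's reporting form calls them biological replicates.

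KMT2A (also called MLL) is a histone H3K4 methyltransferase that acts mainly at promoters, and KMT2D is a related methyltransferase that marks enhancers. KAT6A (MOZ) is a histone acetyltransferase of the MYST family. These 3 enzymes have been described in other cancer cells as targets of p53 gain-of-function mutants, which have lost binding to the canonical p53 element and act partly through ETS factors. MCL1 is a short-lived member of the BCL2 family that blocks apoptosis. ERG belongs to the ETS family, whose members recognise a GGAA core. Peaks describe occupancy alone, and expression of the 4 genes was not measured in these samples.

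The study defined a 25-base mutant p53 element in the CTNNB1 promoter, the gene of β-Catenin, and listed similar sites at other genes. The element is shown as the reference, followed by its relatives at KMT2A (hg19, chr11:118306960-118306984, minus strand) and MCL1 (hg19, chr1:150552239-150552263, minus strand). Both of these lie at the 5′ end of their gene and within the peaks described below. Capitals in the KMT2A and MCL1 sites mark bases that equal the element at the same place, without gaps.

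MP53BS probe 1: gccccctcgcgccccgccccttgtc

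KMT2A site: GCCgCCTCctGCCCgcCCgCcgGcC

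MCL1 site: cCCggCcCcgGCCCCGCCCCggccC

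The KMT2A site equalled the element at 16 of 25 bases and the MCL1 site at 15 of 25. Another site at KAT6A (hg19, chr8:41909603-41909627, minus strand), whose sequence is not shown, equalled it at 17 of 25. All of them were rich in G and C, with 92.0% at KMT2A, every base at MCL1 and 84.0% at KAT6A, against 84.0% in the element itself. The KMT2A site lay inside the peaks of all 4 lists, and the MCL1 and KAT6A sites lay inside the peaks of 3 lists, p53 replicate 1 being the exception. The study searched for such sites within its own p53 peaks, so their place in p53 peaks is no independent finding. It listed only sites that equal the element at 15 or more of 25 bases. Their likeness to a G and C rich element, and much of their own G and C content, thus follow from that choice. No site was listed for KMT2D.

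p53 occupied 5 regions at the 4 loci, where a region is a set of p53 peaks that overlap by at least 1 bp. KMT2A had 2, and KAT6A, KMT2D and MCL1 had 1 each. At every gene 1 of these regions lay within 1000 bp of the 5′ edge, the end of the span at which transcription starts, known here to the nearest kb. What share of all p53 regions lies this close to a 5′ edge was not determined, since no hg19 annotation was used here. This placement is therefore not shown to be particular to the 4 genes. Windows of the same width tiled over all chromosomes held a p53 region in 1.64% of 16203 cases for KMT2A, 1.9% of 13819 for KAT6A, 1.23% of 21792 for KMT2D and 0.935% of 29187 for MCL1. A p53 region that met both ERG lists was held by 0.691% of windows as wide as KMT2A, 0.803% for KAT6A, 0.514% for KMT2D and 0.387% for MCL1. These shares stand as background only, because the rule used the same peaks.

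**Figure D1:**
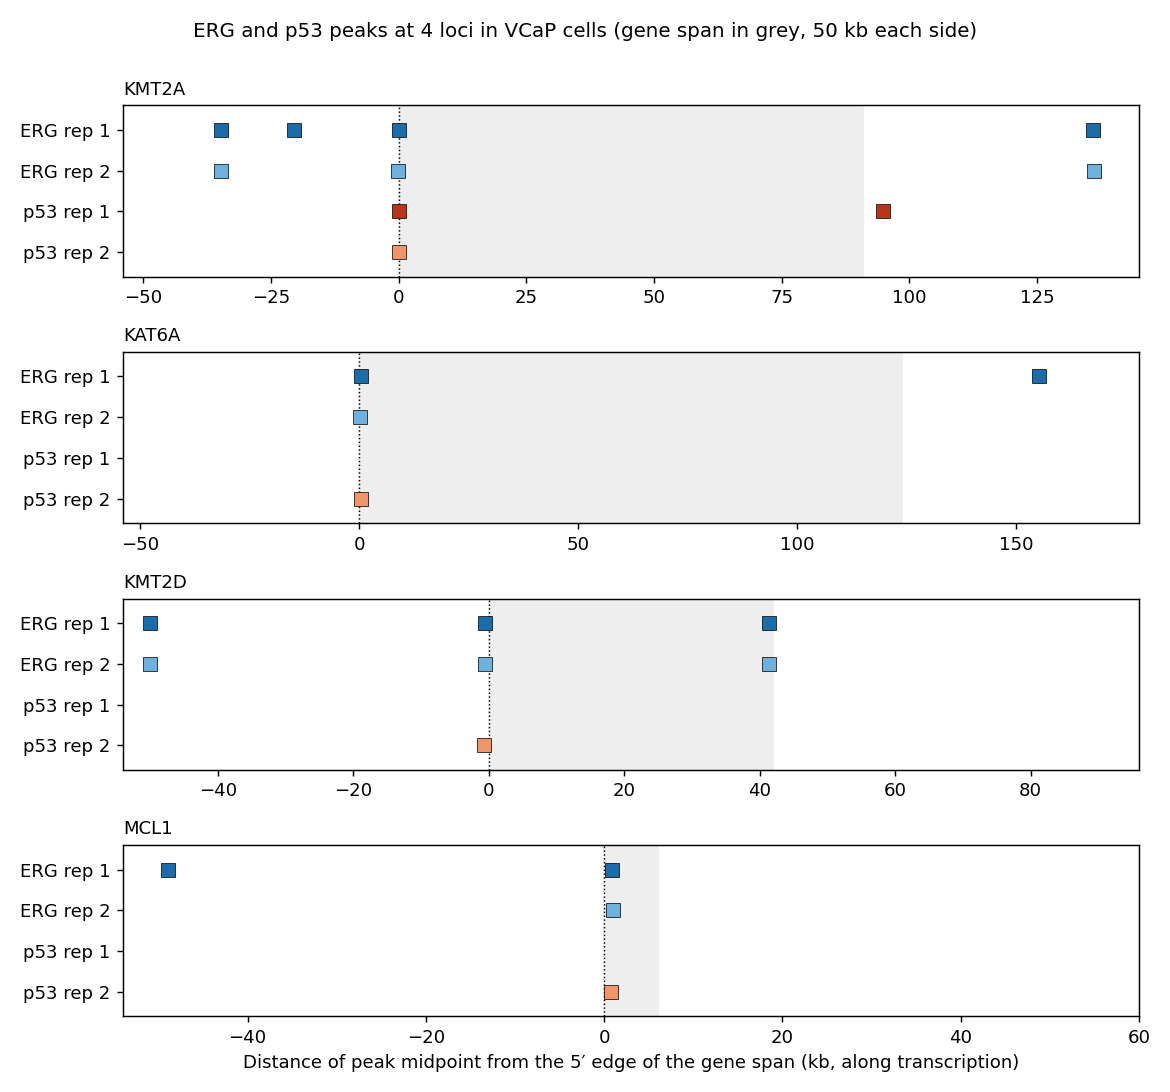
Midpoints of ERG and p53 peaks (squares, 1 row per peak list) by distance from the 5′ edge of each gene in kb along the direction of transcription (x axis). The gene span is grey and each window extends 50 kb beyond it. All 4 genes have peaks of both ERG lists and of p53 replicate 2 near 0, and KMT2A alone also has a p53 replicate 1 peak there.

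KMT2A was the member at which the deposited p53 lists of both replicates held a peak. The p53 peak at its 5′ edge covered chr11:118306907-118307207 in replicate 1 (301 bp) and chr11:118306873-118307150 in replicate 2 (278 bp). The peaks had 244 bp in common, which is 72.8% of their combined extent, and their midpoints were 45.5 bp apart. The replicates thus placed p53 at nearly the same point. Of all 328 p53 regions in the series, 37 (11.3%) had a peak of both lists. At the loci this was 1 of 5 regions.

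KMT2A also had a p53 peak beyond its 3′ end, at chr11:118401774-118402018 (245 bp), in replicate 1 alone. Its midpoint lay 3.90 kb past the 3′ edge. No ERG peak overlapped it in replicate 1 or 2, and the nearest shared ERG region was 40.7 kb away. The gap between the 2 p53 regions of the locus was 94.6 kb.

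In the deposited lists, KAT6A, KMT2D and MCL1 had their p53 peak in replicate 2 alone. The study's own longer set of p53 peaks shared by both replicates was not analysed here. At KAT6A the peak covered chr8:41909522-41909718 (197 bp), close to the narrowest width in that list, 195 bp. At KMT2D it covered chr12:49454570-49454781 (212 bp). At MCL1 it covered chr1:150552007-150552361 (355 bp) and was the widest of the 6 p53 peaks at the loci. Replicate 1 listed no p53 peak at these 3 genes. With no read counts in the lists, this does not show that p53 was absent there. Over the whole series 101 of 328 p53 regions (30.8%) were in replicate 2 alone, and here 3 of 5 were.

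The distance to the next p53 region was 1183 kb at KAT6A, 1444 kb at KMT2D and 3692 kb at MCL1. The median over all 328 p53 regions was 1172 kb and the upper quartile 5572 kb, so this spacing was ordinary for the lists. At KMT2A the next one was the 3′ region named above.

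ERG occupied the 5′ edge of all 4 genes in both replicates. The share of all ERG regions that lie at a 5′ edge was likewise not determined. At KMT2A the ERG peak covered chr11:118306637-118307397 in replicate 1 (761 bp) and chr11:118306689-118307217 in replicate 2 (529 bp). At KAT6A it covered chr8:41909302-41910133 (832 bp) and chr8:41909470-41910114 (645 bp). At KMT2D it covered chr12:49454192-49454806 (615 bp) and chr12:49454151-49454794 (644 bp). These 3 genes thus each had a single ERG region within 1000 bp of the edge, with the wider peak in replicate 1 at KMT2A and KAT6A and in replicate 2 at KMT2D. At MCL1 the peaks covered chr1:150551699-150552468 (770 bp) and chr1:150551645-150552447 (803 bp).

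The replicates of ERG covered much the same bases at these edges. The share of the combined extent covered by both replicates was 69.5% at KMT2A, 77.5% at KAT6A, 91.9% at KMT2D and 90.9% at MCL1. The median over all 9479 overlapping pairs of ERG peaks was 73.7%, so KMT2A was below it and the other 3 genes above. Midpoints differed by 64 bp at KMT2A, 74.5 bp at KAT6A, 26.5 bp at KMT2D and 37.5 bp at MCL1, against a median of 35 bp.

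Set beside all peaks of their lists, shared or not, the ERG peaks at the 5′ edges were wide. In replicate 1 they stood at percentiles 94.9 (KMT2A), 96.5 (KAT6A), 88.4 (KMT2D) and 95.2 (MCL1) of peak width, where the median was 351 bp. In replicate 2 the percentiles were 87.7, 94.2, 94.1 and 97.9 in the same order, and the median was 306 bp. No comparison with shared ERG peaks alone was made, and the genes were picked with these peaks known. The p53 peaks at the same edges showed no such pattern. In p53 replicate 2 the percentiles were 44.2 for KMT2A, 3.62 for KAT6A, 13.8 for KMT2D and 71.7 for MCL1, and the median was 291.5 bp. The KMT2A peak of p53 replicate 1 stood at 75.8, with a median of 231 bp.

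**Figure D2:**
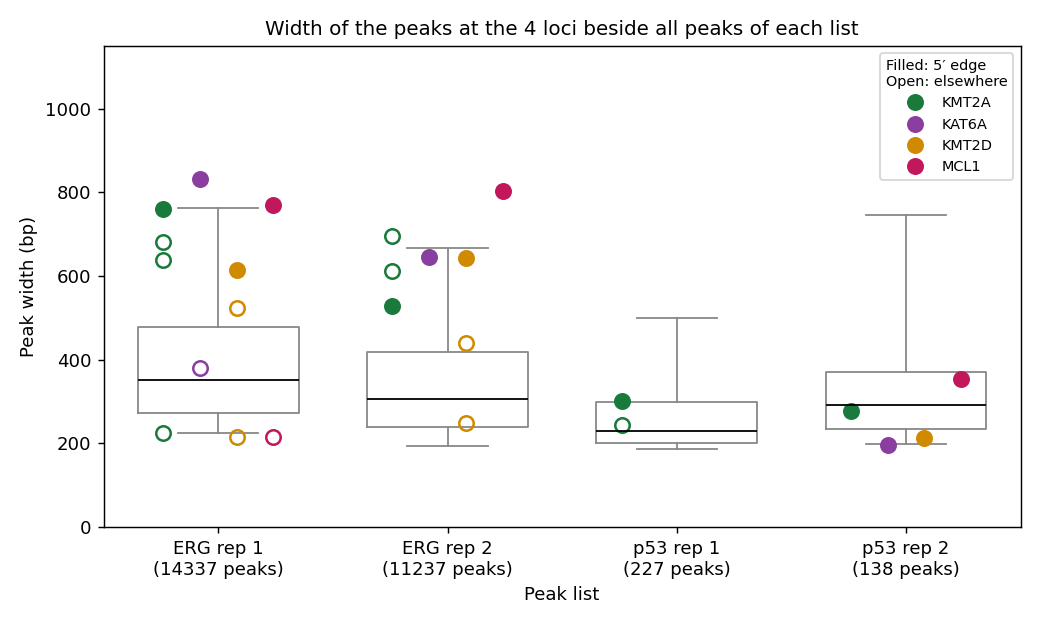
Peak width in bp (y axis) for each list (x axis). Boxes show the quartiles and median of all peaks in the list with whiskers from the 5th to the 95th percentile, and circles are the peaks at the 4 loci, filled at the 5′ edge and open elsewhere. All 8 filled ERG circles lie above their box, while the filled p53 circles spread from 197 bp to 355 bp.

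To see whether p53 and ERG held the same sites, the peaks were overlapped. All 4 p53 regions at the 5′ edges overlapped a peak of both ERG lists, and the p53 region beyond KMT2A overlapped neither. Of all 328 p53 regions, 179 (54.6%) overlapped a peak of either ERG list and 127 (38.7%) a peak of both. Among the 101 regions found in p53 replicate 2 alone, the group to which those of KAT6A, KMT2D and MCL1 belong, 32 (31.7%) overlapped both. Since the genes were picked for their p53 peaks with these overlaps known, the 4 of 5 was not tested against these shares.

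Each p53 peak at a 5′ edge lay wholly inside the ERG peak of both replicates. This held for all 5 such p53 peaks, counting both replicates of KMT2A. In the whole series 155 p53 peaks met a peak of both ERG lists, and 67 of them (43.2%) lay wholly inside both. The genes were picked with these overlaps known, so the 5 peaks were not tested against this share. It also covers p53 and ERG peaks of all widths, and the ERG peaks at these edges were wide for their lists. The p53 peak took up 39.6% of the ERG replicate 1 peak at KMT2A in p53 replicate 1 and 36.5% in p53 replicate 2. The shares of the ERG replicate 1 peak were 23.7% at KAT6A, 34.5% at KMT2D and 46.1% at MCL1. Of the narrower ERG replicate 2 peak at KMT2A, p53 replicates 1 and 2 took up 56.9% and 52.6%. The shares of the ERG replicate 2 peak were 30.5% at KAT6A, 32.9% at KMT2D and 44.2% at MCL1.

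The distance between the midpoints of p53 and ERG varied among the genes and with the replicates compared. At KMT2A the midpoints of p53 and ERG replicate 1 were 40 bp apart for p53 replicate 1 and 5.5 bp apart for p53 replicate 2. From ERG replicate 2 the distances were 104 bp and 58.5 bp. At KAT6A the p53 midpoint lay 97.5 bp and 172 bp downstream of those of ERG replicates 1 and 2, along the direction of transcription. At KMT2D it lay 176.5 bp and 203 bp upstream. At MCL1 it lay 100.5 bp and 138 bp upstream. The median distance over all 155 p53 peaks was 62 bp from ERG replicate 1 and 61 bp from ERG replicate 2. KAT6A, KMT2D and MCL1 exceeded both medians and did not share a direction, and at KMT2A the distance was below the median except between p53 replicate 1 and ERG replicate 2.

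**Figure D3:**
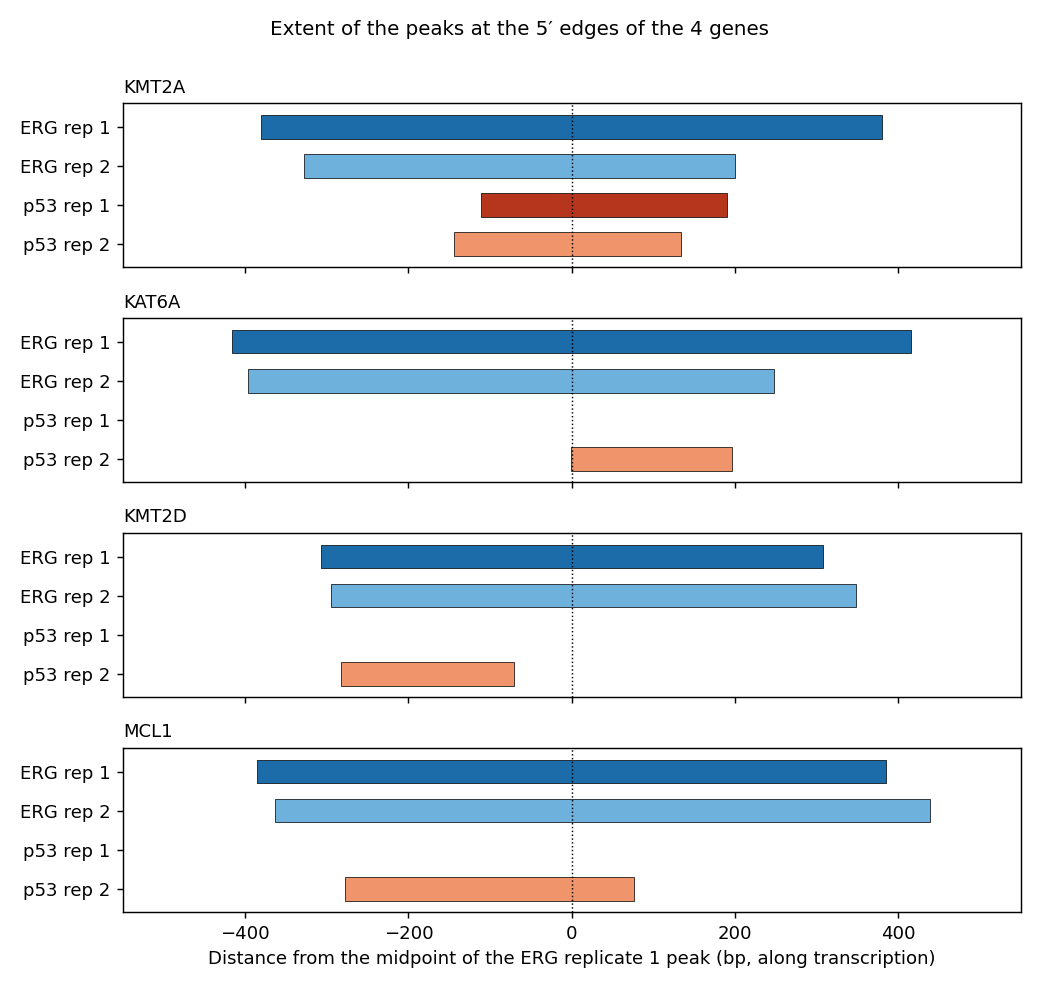
Extent of the ERG and p53 peaks (bars, 1 row per list) at the 5′ edge of each gene, by distance in bp from the midpoint of the ERG replicate 1 peak along the direction of transcription (x axis). Every p53 bar lies within both ERG bars, with its midpoint 40 bp and 5.5 bp from 0 in p53 replicates 1 and 2 at KMT2A, further downstream at KAT6A and further upstream at KMT2D and MCL1.

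Beyond the 5′ edges the loci differed in ERG. Of 11 ERG regions at the loci, 8 (72.7%) were shared, that is, had a peak of both replicates, against 9366 of 16095 (58.2%) in the whole series. KMT2A and KMT2D each had 3 shared regions, and KAT6A and MCL1 had only that at the edge. Tiled windows as wide as the locus held at least 3 shared regions in 5.79% of cases for KMT2A and 3.43% for KMT2D. At least 1 was held by 37.1% of windows as wide as KAT6A and 22.8% of those as wide as MCL1. A count like that of KAT6A or MCL1 was thus common for windows of their size, and counts like those of KMT2A and KMT2D were less so. One of the 3 regions at KMT2D only just reached into its window, as given below. Exactly 2 shared regions were held by 6.28% of windows as wide as KMT2D. These shares are background only, because the genes were chosen with their ERG peaks known and the windows include unmappable sequence and sequence without genes.

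**Figure D4:**
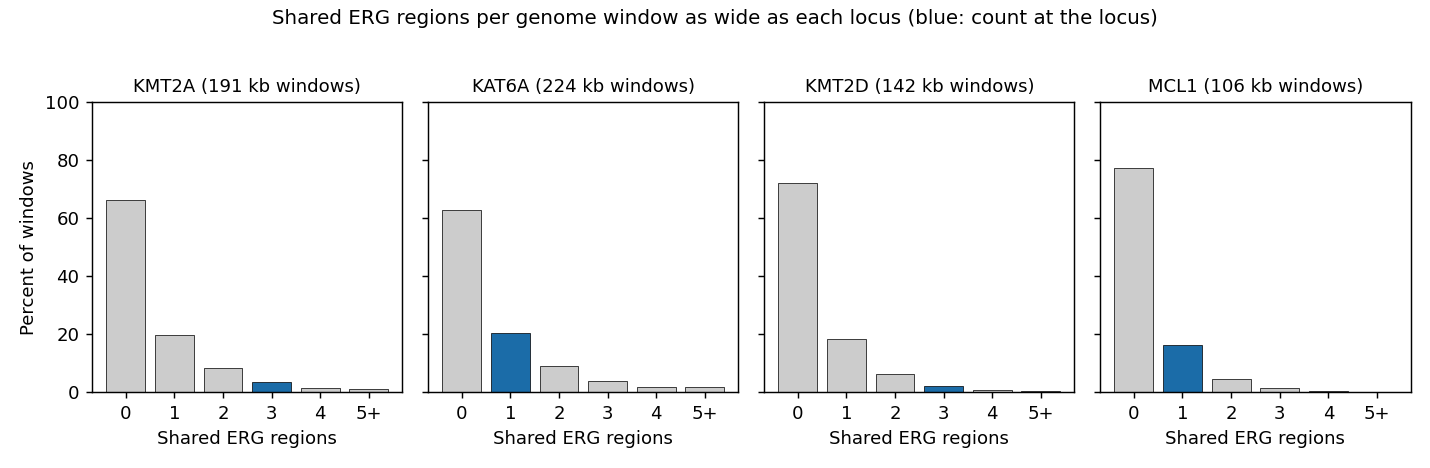
Percent of genome windows (y axis) that hold 0 to 4 or at least 5 shared ERG regions (x axis), in windows as wide as each locus. The blue bar is the count at the locus itself, 3 regions at KMT2A and KMT2D and 1 region at KAT6A and MCL1.

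The other shared ERG regions at KMT2A flanked the gene. One lay 34.7 kb upstream of the 5′ edge at chr11:118271952-118272632, with peaks of 681 bp in replicate 1 and 612 bp in replicate 2. The other lay 45.0 kb past the 3′ edge in replicate 1 and 45.2 kb past it in replicate 2, with peaks of 638 bp and 695 bp. Past its 5′ edge, the KMT2A span (118307000 to 118398000 on chromosome 11) had no ERG peak of either replicate. In ERG replicate 2 both flanking peaks were wider than that at the 5′ edge (529 bp).

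At KMT2D a shared ERG region lay at the 3′ end of the gene, at chr12:49412400-49412922. Its peaks measured 523 bp and 440 bp, and 84.1% of the combined extent was covered by both. Both midpoints were within 1 kb of the 3′ edge. KMT2D thus had ERG at both ends of the gene, while p53 was listed at the 5′ end alone. The third shared region, at chr12:49503903-49504163, had peaks of 216 bp and 250 bp and reached into the window by only 53 bp in replicate 1 and 98 bp in replicate 2. It was the member closest to the limit of the rule, KMT2D having 2 shared regions without it, and no ERG peak lay outside the 4 windows within 6 kb of a limit.

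ERG regions in replicate 1 alone lay 20.4 kb upstream of the KMT2A edge (224 bp), 31.1 kb past the 3′ edge of KAT6A (381 bp) and 49.0 kb upstream of the MCL1 edge (215 bp). The KMT2A and MCL1 peaks were near the narrowest width of that list, which was 215 bp. ERG replicate 2 had no peak at the loci that replicate 1 lacked. Of the 8 shared ERG regions, the 4 at the 5′ edges held a p53 region and the other 4 held none. In the whole series 132 of 9366 shared ERG regions (1.41%) held one. This share is background only and was not tested, because the genes were picked with their p53 and ERG peaks known.

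Peaks in the flanks may belong to neighbouring genes. In the order of RefSeq genes (GRCh38.p14), the next protein-coding genes are ATP5MG and TTC36 at KMT2A, ANK1 and AP3M2 at KAT6A, PRKAG1 and RHEBL1 at KMT2D, and ADAMTSL4 and ENSA at MCL1. Flanking peaks were not assigned to genes, since no hg19 annotation was used here.

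Promoter sequences from RefSeq (GRCh38.p14) were matched to the genes by symbol, and 2 of the 4 had an entry, KMT2A and KMT2D. KAT6A and MCL1 had none. The 250 bases before the start are shown because the p53 and ERG peaks meet at this end of the genes. For KMT2A (chr11:118436242-118436491, plus strand) capitals mark the 25-base site above, here on the opposite strand. For KMT2D (chr12:49060795-49061044, minus strand) capitals mark the ETS core GGAA or its complement TTCC.

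KMT2A promoter: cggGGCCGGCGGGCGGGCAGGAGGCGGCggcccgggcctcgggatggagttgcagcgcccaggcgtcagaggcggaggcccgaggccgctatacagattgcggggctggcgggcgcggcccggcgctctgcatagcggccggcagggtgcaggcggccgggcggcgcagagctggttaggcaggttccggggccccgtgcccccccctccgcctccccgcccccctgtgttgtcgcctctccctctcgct

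KMT2D promoter: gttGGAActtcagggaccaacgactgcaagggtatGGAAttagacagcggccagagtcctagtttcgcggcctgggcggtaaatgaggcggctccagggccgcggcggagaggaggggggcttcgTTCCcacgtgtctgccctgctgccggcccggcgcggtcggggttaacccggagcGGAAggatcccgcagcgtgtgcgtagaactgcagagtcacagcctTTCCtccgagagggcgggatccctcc

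The KMT2A site was found letter for letter in its promoter, 247 to 223 bases before the start. The searches below used windows of 300 bases, which add the first 50 bases of the transcript, and both strands. The KMT2A window was 76.3% G and C and the KMT2D window 65.0%, against a median of 58.7% over 35116 promoters, and 7.36% of promoters reached the value of KMT2A.

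Likeness to the mutant p53 element was common among promoters. A stretch equal to it at 16 or more of 25 bases, the value of the KMT2A site, was present in 31.1% of all promoters, and 15 or more, the value of the MCL1 site, in 52.5%. At least 17, the value of the KAT6A site, was found in 13.2%. The KMT2A promoter had 5 stretches with 16 or more, which partly share bases, so the listed site was not alone in it. The KMT2D promoter reached 15 in 1 stretch.

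GGAA occurred 5 times in the KMT2D promoter and 2 times in that of KMT2A, and 95.5% of promoters had it at least once, with a median of 3. As many as 5 were found in 28.6%. The longer ETS motif CGGAAGT, which contains GGAA, was in neither promoter and in 6.83% of all. The CATG core of p53 sites occurred once in the KMT2A window and not in that of KMT2D, and in 54.9% of all. The canonical p53 half-site was in neither, and in 6.63% of all. These letters were searched in the reference promoters alone. The hg19 peaks extend beyond or stop short of these windows, and no match says nothing about binding elsewhere in a peak.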

How the data were processed

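Chromatin immunoprecipitation sequencing of ERG (n = 2) and p53 (n = 2) in VCaP cells was analysed from peak lists. Per the submitters' processing notes, the authors used CASAVA 1.4, Bowtie2 2.3.3.1 and MACS2 with hg19 (GRCh37), and the methods of the study give another Bowtie2 version. Peaks were called per sample without pooling. The deposited lists hold chromosome, start, end and name, and no score, p-value, summit or count. Depth behind a peak is therefore unknown here, and presence in a list cannot be graded. The deposited ERG lists are as long as those the study gives at its false discovery rate cutoff. The deposited p53 lists are shorter than those it gives at that cutoff. They are also shorter than its set of p53 peaks shared by both replicates. The filter behind the deposited p53 lists is not given in the sources used here.

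Gene spans (hg19, to the nearest kb) were widened by 50 kb. Strands came from GENCODE v44, and GRCh38 positions were never combined with hg19 peaks. Peaks overlapping by at least 1 bp were merged, and positions count from 1. Windows for background were tiled from the start of each chromosome to its outermost peak, unmappable sequence included. Sites and the element came from the study's supplementary sequences. The overlap code was tested on simulated data. The genes, lists and comparisons were chosen with earlier results of these data known, and all 4 genes are named. Alternatives were other window sizes, a reciprocal overlap of 50%, wider peaks alone and single replicates. Related genes planned by name need an hg19 annotation and were not analysed here. Python 3.11.15, numpy 2.4.6 and matplotlib 3.10.9 were used.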

Additional observations from a re-analysis of the deposited data

How the results depend on the processing

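Of 23 alternatives, 15 stayed within 1.5 times of the number reported and 8 did not. The 5 p53 regions became 3 in the gene spans alone, where the KMT2D region and that beyond KMT2A fall outside, and 3 with peaks at least as wide as the median of their list. The 8 shared ERG regions became 5 with 10 kb on each side and 4 in the spans alone, and ranged from 8 to 11 without 1 ERG replicate, where all peaks of the other are counted. The 4 p53 regions on ERG became 2 with the wider peaks and 1, at KMT2A, with a reciprocal overlap of 50%. At KAT6A, KMT2D and MCL1 the p53 peak took up less than 50% of the ERG peak of either replicate. Without p53 replicate 2, 2 p53 regions remained, both at KMT2A, and 1 of them met ERG. Without p53 replicate 1, 4 remained and 4 met ERG, so the ranges without 1 replicate were 2 to 4 for p53 regions and 1 to 4 for those on ERG. In the deposited lists, the p53 regions at KAT6A, KMT2D and MCL1 thus rest on replicate 2. The study's longer p53 peak sets were not analysed here. With 100 kb on each side the number of p53 regions stayed at 5 and that of shared ERG regions was 12.

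No paired analysis was possible because every result here is a count of peaks without a test. A stricter threshold of the peak caller was not run, as the lists carry no score, and a peak missing from a list is not shown to be an unoccupied site.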
